A study of Mus musculus with 26 samples.

Results

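At postnatal day 7 (P7), green fluorescent brain cells were sorted from a pair of mouse lines in which Pdgfra marks cells in different ways, and the transcripts of single cells were counted as molecules. In the Pdgfra-H2B-GFP line the fluorescence reports the gene as it is being used, or was used shortly before. In the Pdgfra-CreERT/RCE line it records that the gene was used when tamoxifen was given, whatever the cell has become since. The comparison was made over chips, each chip being 1 microfluidic capture plate of 96 wells. The P7 brain chips that the labels give for the H2B-GFP line (chips 21 and 22, where the study's methods list 4) were set against all P7 brain chips of the CreERT line (chips 5 and 13 to 20). A well counted as a cell when it held at least 1000 molecules, leaving out mitochondrial genes, spike-in controls and entries for foreign marker genes. By this rule 709 of the 1514 cells in the 26 chips of the series belonged to the comparison, 108 of the H2B-GFP line on 2 chips and 601 of the CreERT line on 9 chips.

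The H2B-GFP mice carried a nuclear histone-GFP fusion knocked into one Pdgfra allele on a C57BL/6NJ background, and were not given tamoxifen. The traced mice carried the Pdgfra-CreERT transgene and the RCE reporter, in which a LoxP-flanked stop keeps eGFP silent until Cre removes it, on a mixed C57BL/6NJ and CD1 background. Tamoxifen reached them either in the pregnant dam at E12.5 (6 chips, 404 cells) or in the pups at P3 (3 chips, 197 cells). The study's list of experiments calls the first 6 chips E13.5-derived, while its tracing methods and the labels, followed here, give tamoxifen at E12.5. Pups of both lines were taken at about P7, the tissue dissociated with papain and green cells collected by flow cytometry. For the H2B-GFP line at P7 the study's methods describe a range of GFP brightness and leave out the dimmer cells, a step not described for the traced line. They name forebrain for the former and brain for the latter, while the labels carry the same dissociation text for all P7 chips. A difference in sorting gate or tissue cannot be told apart from the label. Each line has limits as a model. The knock-in leaves 1 intact Pdgfra allele, and a stable nuclear GFP can outlast the transcript in cells that have begun to differentiate. The transgene labels only the cells in which Cre acted while tamoxifen was present, and the sort keeps all of their later progeny.

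Pdgfra encodes a receptor tyrosine kinase for platelet-derived growth factors, the mitogens that keep oligodendrocyte precursor cells (OPCs) dividing. OPCs lose the receptor as they pass through committed precursors (COPs) to newly formed oligodendrocytes (NFOLs), and vascular and leptomeningeal cells (VLMCs), fibroblast-like cells of vessels and meninges, also express it. The question was therefore which classes of cell each label collects, how much Pdgfra they hold, and whether cells of the same class differ between the lines.

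Chip 22 was the shallowest of the 11 and chip 21 lay near the middle in molecules per cell, while both held fewer molecules in all than any CreERT chip. The median molecules per cell were 2852 and 2106 on chips 21 and 22, against 2446 to 4149 (median 2592) on the CreERT chips. The difference of -556 molecules in the mean over chips, -183 without chip 22 and -929 without chip 21, was within the spread between chips (exact permutation test over the 55 splits of 2 and 9 chips, two-sided p = 0.236, the smallest p possible being 0.0182). Summed over cells, chips 21 and 22 held 159159 and 114142 molecules and the CreERT chips 163880 to 297627 (median 206216). The median genes per cell were 1316 and 1073 against 1306.5 to 1860.5 (median 1511). Spike-in molecules differed more: the median cell held 204 and 166 ERCC molecules on chips 21 and 22 but 55 to 95 (median 80) on the CreERT chips, with no overlap. The mitochondrial share was 6.80% and 6.38% against 4.38% to 8.04% (median 5.96%). No column name was shared among the 2496 wells of the series, and no 2 cells had the same counts.

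Reporter, mouse line, background and experiment cannot be told apart here. Both H2B-GFP chips came from 1 experiment, whose columns are named in an older style than those of the 3 CreERT experiments, and no experiment held chips of both lines, so no value within an experiment exists. Chips of an experiment may hold cells of the same suspension, so p-values over chips may measure technical spread only. The sexes were also arranged differently. On chips 21 and 22, 22 and 17 cells held molecules of Xist, the RNA of the inactive X, and none of the Y-linked genes Ddx3y, Kdm5d, Uty and Eif2s3y, while 12 and 12 held Y-linked molecules alone. On chips 5, 13 and 14 no cell held a Y-linked molecule and 57 to 64 held Xist, whereas on chips 15 to 20 no cell held Xist and 29 to 45 held Y-linked genes. Each CreERT experiment was thus of 1 sex by these genes, and the H2B-GFP experiment of both.

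Among the entries for foreign genes, Cre was found in the CreERT line only. It was counted with 37 molecules in 34 of the 601 CreERT cells, on 8 of the 9 chips, with none on chip 5. On chips 21 and 22 there was none in 108 cells, and on all 16 chips of the H2B-GFP line in the series none in 835 cells. By counting error at most 2.78% and 0.359% of such cells would show a molecule, which does not limit the share that carry the gene, as the 63 cells of CreERT chip 5 also had none. GFP was found on every chip, at 75.4 and 78.8 CPM (molecules scaled to the same total on every chip) on chips 21 and 22 and at 79.2 to 181 CPM (median 147) on the CreERT chips, so that each CreERT chip lay above both H2B-GFP chips, chip 19 by less than the value of 1 molecule. Within classes the order was not the same throughout. OPC-like cells held 135 CPM of GFP in the H2B-GFP line (19 of its 21 molecules, in 13 of 62 cells) and 97.2 CPM in the CreERT line (60 of 297 cells), the opposite order to that of the chips. Cycling, COP-like and VLMC-like cells held 0 in the H2B-GFP line, from 8, 18 and 8 cells, against 136, 129 and 205 CPM in the CreERT line, and NFOL-like cells 35.3 CPM, 1 molecule, against 97.1 CPM. These values by class were not tested. At 15 of 108 and 175 of 601 cells, most sorted cells had no GFP molecule, so this count does not mark cells one by one.

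Estrogen receptor 1 (Esr1) was likewise counted in the CreERT line only. CreERT is a fusion of Cre with a mutated ligand-binding domain of this receptor, and the counts by gene symbol do not show whether a molecule came from the gene on chromosome 10 (chr10:4611593-5005614, mm10) or from the transgene. Over all cells Esr1 was at 0 on chips 21 and 22 and at 26.9 to 107 CPM (median 62.9) on the CreERT chips. In OPC-like cells it was at 0 on both H2B-GFP chips and at 38.6 to 137 CPM (median 78.9, 95 molecules) on the CreERT chips. All 9 CreERT chips held it, with 18, 20 and 27 molecules on the chips of tamoxifen at P3 and 7 to 12 on those of tamoxifen at E12.5, and no chip of the H2B-GFP line at either age or in either region held a molecule, in 835 cells. In OPC-like cells the level was at least 4.82-fold lower in the H2B-GFP line, taking 3 molecules over its 2 chips as the floor, and the gene passed edgeR's test (adjusted p = 0.0340). That call was lost without any 1 of chips 17 to 22, with adjusted p of 0.0536 to 0.414 by edgeR (0.414 without chip 21), and DESeq2 gave no adjusted p. Over all cells the bound was 5.68-fold and edgeR's adjusted p 0.0517, and 0.0390 to 0.0472 without chip 5, 14, 15 or 19. Among CreERT cells 91 of the 93 with Esr1 also held Pdgfra, against 426 of the 508 without it, a comparison of cells with no adjustment for depth. Esr1 was found in 58 of 297 OPC-like and 12 of 60 cycling cells of this line, and in 3 of 47 COP-like, 1 of 29 NFOL-like and 4 of 50 VLMC-like cells.

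**Figure D1:**
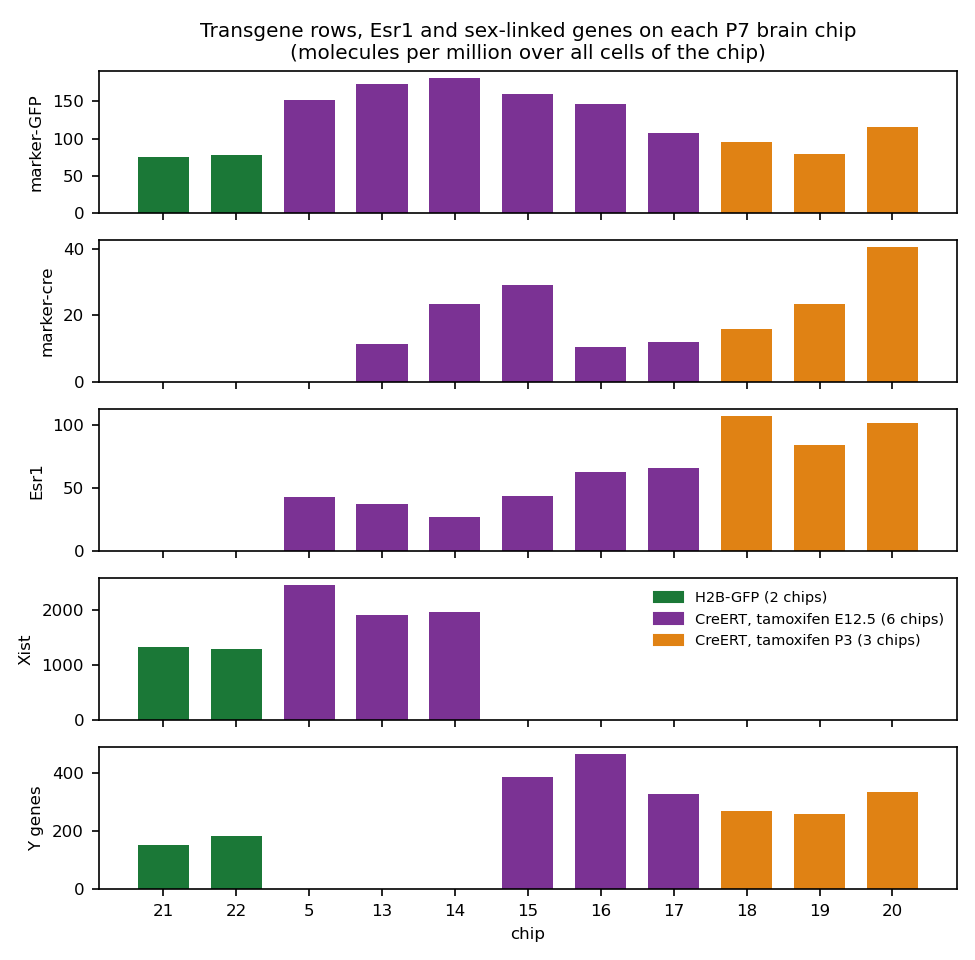
CPM over all cells of each P7 brain chip for GFP, Cre, Esr1, Xist and the sum of 4 Y-linked genes, with bars coloured by line and tamoxifen time. Cre and Esr1 are at 0 on chips 21 and 22, Cre also on chip 5, and only chips 21 and 22 hold both Xist and Y-linked molecules.

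Wells that held genes of a pair of classes were set aside before cells were clustered, and they were unevenly spread. Wells with both OPC and VLMC genes numbered 1 of 59 and 0 of 49 on chips 21 and 22 and 1 to 23 on the CreERT chips, 91 in all. Their share on the CreERT chips was 1.75% to 33.8%, and the 3 chips of tamoxifen at P3 lay between 1.75% and 7.14%. The remaining 601 cells formed 8 clusters. OPC-like cells were held in 3 of them, which took 23, 15 and 24 cells of the H2B-GFP line and 113, 115 and 69 of the CreERT line.

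The 5 named classes were found in both lines, and no difference in share passed. This test has little reach, because adjusted over 4 shares a single share that separates the lines completely would still have a p of 0.0727. OPC-like cells made up 58.6% and 58.3% on chips 21 and 22, against 37.3% to 77.4% (median 63.2%) on the CreERT chips, a difference of -0.884 percentage points in the mean (exact permutation p = 0.945, adjusted p = 0.945 over 4 shares). Both H2B-GFP chips lay in the middle of the CreERT range, with 5 CreERT chips above and 4 below. Cycling cells made up 6.90% and 8.33% against 4.08% to 24.2% (median 11.9%), a difference of -4.22 points (exact permutation p = 0.291, adjusted 0.582). VLMC-like cells made up 5.17% and 10.4% against 1.82% to 26.5% (median 9.30%), a difference of -2.62 points (exact permutation p = 0.782, adjusted 0.945). The OPC-like difference was 6.13 points against the chips of tamoxifen at E12.5 and -14.9 points against those of P3, and it was above 0 without chip 5, 18, 19 or 20 (0.219 to 1.37 points). The VLMC-like difference was -6.21 and 4.57 points against the same groups of chips and 0.00632 points without chip 21.

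The widest gap was in the later cells of the lineage. COP-like and NFOL-like cells together made up 29.3% and 22.9% of the H2B-GFP chips and 4.55% to 27.1% (median 14.0%) of the CreERT chips, a difference of 10.4 points (exact permutation p = 0.164, adjusted 0.582). No CreERT chip exceeded both H2B-GFP chips and 6 of 9 lay under both. With finer clusters (resolution 2.0) the difference was 16.9 points (exact permutation p = 0.0182, adjusted 0.0727), and it was 6.49 points against the chips of tamoxifen at E12.5 alone and 18.3 points against those of P3 alone. COP-like cells were 12 of 58 (20.7%) and 6 of 48, against 3.85% to 18.6% (median 9.09%) on the CreERT chips, and the NFOL-like share was 8.62% and 10.4% against 0 to 13.5% (median 6.98%). The 6 chips of tamoxifen at E12.5 had a mean combined share of 19.6% ± 7.90 (SD) and the 3 of tamoxifen at P3 of 7.84% ± 3.19 (SD), so the CreERT chips spread widely among themselves. A cluster of 12 cells that led with Cldn5 and other endothelial genes was given no name; it held 0 of 106 H2B-GFP cells (at most 2.83%) and 12 of 495 CreERT cells.

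**Figure D2:**
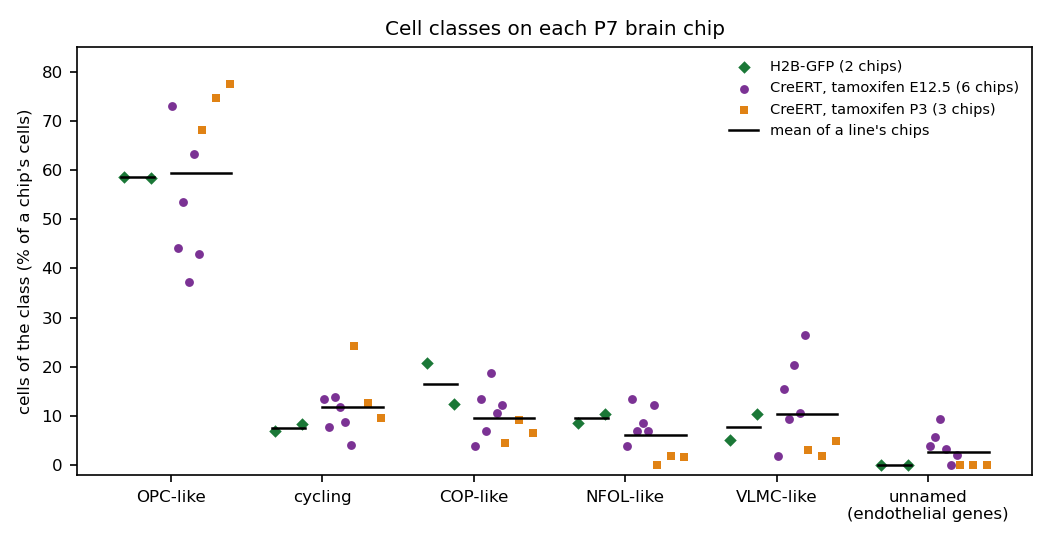
Share of each P7 brain chip's cells in each class (percent, 1 point per chip, black bars giving the mean of a line's chips). The 2 H2B-GFP chips lie within the CreERT range for OPC-like cells at 58.6% and 58.3%, and COP-like cells make up 20.7% of chip 21, above every CreERT chip.

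Pdgfra itself (chr5:75152292-75198215, mm10) lay in the same range in OPC-like cells of both lines. Over OPC-like cells, those of the cycling cluster included, it stood at 2508 and 2449 CPM on chips 21 and 22. On the CreERT chips it stood at 2131 to 3291 CPM (median 2648). The H2B-GFP chips lay inside the CreERT range, 7 CreERT chips above both and 1 below, with a log2 fold change of -0.17 (SE 0.227, edgeR adjusted p = 0.885). In OPC-like cells outside the cycling cluster it was found in 57 of 62 H2B-GFP and 283 of 297 CreERT cells. Over all cells it was 1577 and 1533 CPM against 1282 to 2865 CPM (median 1925), a log2 fold change of -0.38 (SE 0.293, edgeR adjusted p = 0.742). These values again lay inside the CreERT range, with 5 CreERT chips above and 4 below. They lay inside the range of the chips of tamoxifen at E12.5 (1282 to 2667 CPM) but below all those of P3 (2421 to 2865 CPM). Over 21 alternatives the log2 fold change ran from -0.73 to -0.18.

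Past the OPC stage the values lay further apart. In COP-like cells Pdgfra was at 80.4 and 60.5 CPM on chips 21 and 22, 4 molecules in 4 of 18 cells. On the CreERT chips it was at 126 to 1930 CPM (median 670), in 29 of 47 cells. All 9 CreERT chips lay above both H2B-GFP chips, although chip 18 did so with a single molecule in 3 cells. In NFOL-like cells Pdgfra was found in 1 of 10 H2B-GFP cells and in 14 of 29 CreERT cells, with 0 and 245 CPM on chips 21 and 22 against 0 to 2078 CPM (median 732) on the 8 CreERT chips that held such cells. Over both classes together the level was 56.2 and 139 CPM on the H2B-GFP chips and 126 to 1386 CPM (median 672) on the CreERT chips. The difference of -672 CPM did not pass (exact permutation p = 0.0909, 8 of 9 CreERT chips above both H2B-GFP chips), and this quantity was chosen after its values were seen. In wells of at least 2000 molecules it was -373 CPM (exact permutation p = 0.182). The median depth of COP-like cells was 3048.5 molecules in the H2B-GFP line and 2989 in the CreERT line, and of NFOL-like cells 2439.5 and 4864. Pdgfra was among the genes clustered, so a class boundary that falls at another stage in each line was not tested as a source of the difference.

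Cspg4, the NG2 proteoglycan of OPCs, was found in 2 of 18 COP-like cells of the H2B-GFP line and 20 of 47 of the CreERT line, and in 1 of 10 and 12 of 29 NFOL-like cells, counts pooled over chips, not adjusted for depth and not tested. In COP-like cells it was at 134 and 60.5 CPM on chips 21 and 22 and at 0 to 643 CPM (median 204) on the CreERT chips. Olig1, a transcription factor of the whole lineage, stood at 1019 and 787 CPM against 583 to 1383 CPM. Gpr17, a receptor that peaks in committed precursors, stood at 8553 and 4781 CPM against 2332 to 6853 CPM, and Bmp4, a secreted factor of the same stage, at 724 and 726 CPM against 80.4 to 1020 CPM. For each of these 4 genes the H2B-GFP values overlapped the CreERT chips in COP-like cells, and whether they differ from Pdgfra in this was not tested. In VLMC-like cells Pdgfra stood at 1254 and 357 CPM against 0 to 782 CPM (median 700), from 8 and 50 cells.

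**Figure D3:**
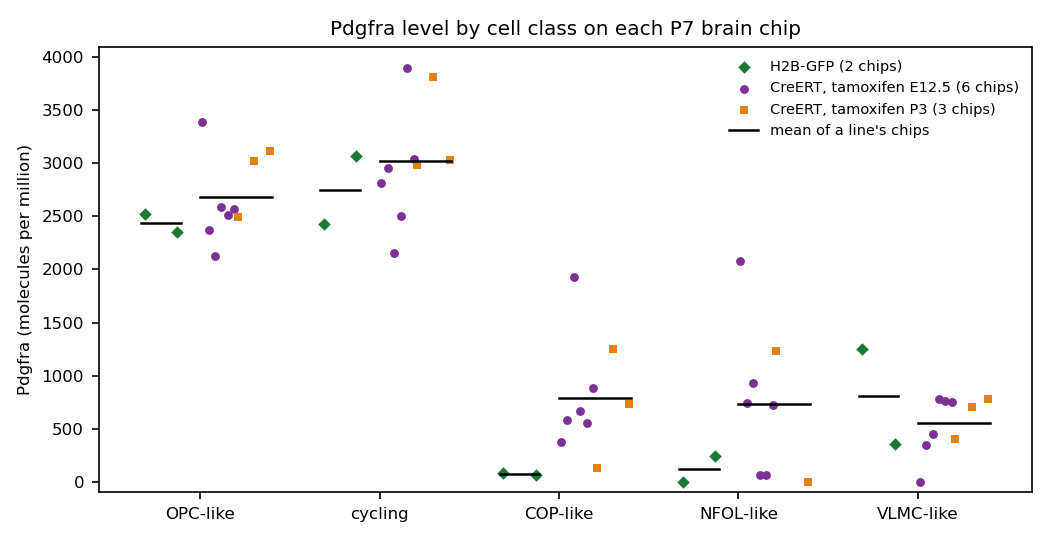
Pdgfra level (CPM) in each cell class on each P7 brain chip, 1 point per chip that holds cells of the class and black bars for the mean of a line's chips. The H2B-GFP chips lie at 80.4 and 60.5 in COP-like cells, below the CreERT chips, and within the CreERT range in OPC-like cells.

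With each cell thinned to 1000 molecules, 55.5% and 61.4% of cells on chips 21 and 22 held Pdgfra, against 54.6% to 87.4% (median 67.8%) on the CreERT chips. The difference of -13.5 points did not pass (exact permutation p = 0.20, adjusted p = 0.436 over 6 genes), and 7 CreERT chips lay above both H2B-GFP chips and 1 below. Against the chips of tamoxifen at E12.5 and P3 it was -7.50 and -25.6 points, and for Cspg4-positive cells -3.37 and -23.4 points. Without thinning the shares were 67.8% and 75.5% against 73.4% to 97.1% (median 90.0%). Cspg4-positive cells made up 36.4% and 31.3% against 25.1% to 63.0% (difference -10.0 points, exact permutation p = 0.327, adjusted 0.436), and cells positive for Col1a1, a fibrillar collagen of VLMCs, 4.49% and 5.35% against 3.33% to 22.0% (difference -7.48 points, exact permutation p = 0.20, adjusted 0.436). Bmp4 was found in 14.3% and 12.6% of cells against 2.77% to 16.8%, and Top2a, a marker of division, in 8.38% and 16.0% against 4.46% to 17.1%. Mog, a late myelin gene, was counted in 0 of 108 H2B-GFP cells and in 11 of 601 CreERT cells without thinning, where 0 limits the cells with a counted molecule (at most 2.78%) and not those that express the gene. None of the 6 shares passed, and after adjustment over 6 a single share could not have done so with these numbers of chips.

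Across all cells, few genes were called between the lines. Of 6579 genes tested by edgeR's quasi-likelihood test with Benjamini-Hochberg adjustment, 4 passed an adjusted p of 0.05 (0.0608% of those tested), all higher in the H2B-GFP line, and 578 had an unadjusted p under 0.05. Tmem14c, a mitochondrial membrane protein needed for heme synthesis, was at 289 and 175 CPM on chips 21 and 22 against 20.2 to 87.3 CPM (median 47.2), a log2 fold change of 2.29 (SE 0.384, adjusted p = 0.0179). Rpsa, a protein of the small ribosomal subunit, was at 1162 and 1016 CPM against 357 to 476 CPM (median 435), a log2 fold change of 1.31 (SE 0.224, adjusted p = 0.0179). Rpl8 of the large subunit was at 1118 and 1008 CPM against 366 to 519 CPM (log2 fold change 1.22, SE 0.221, adjusted p = 0.0212). Pisd-ps3, a pseudogene of phosphatidylserine decarboxylase, was at 886 and 841 CPM against 173 to 456 CPM (log2 fold change 1.63, SE 0.291, adjusted p = 0.0212). For all 4 both H2B-GFP chips lay above each of the 9 CreERT chips. In 536 of the 6579 genes (8.15%) the chips of the lines did not overlap, 297 higher and 239 lower in the H2B-GFP line. The count of 4 was 0 without chip 21 or without chip 22, where 617 and 563 genes had an unadjusted p under 0.05, and was 22 without chip 5, 21 without chip 19, 16 without chip 15 and 9 without chip 14. DESeq2 called 36 genes (32 higher, 4 lower) of the 1060 it adjusted, and with RLE size factors in place of TMM edgeR called 17 (12 higher, 5 lower). The direction of the calls was less one-sided elsewhere: edgeR called 18 against the chips of tamoxifen at E12.5 only, 8 higher and 10 lower, and 12 with no filter on low counts, 7 higher and 5 lower.

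Within OPC-like cells, those of the cycling cluster included, 18 of 3771 genes passed edgeR's test (0.477%, with 350 at an unadjusted p under 0.05). Of the 18, 15 were higher and 3 lower in the H2B-GFP line, and all 4 of the genes called over all cells were among them. Most of the higher genes code for ribosomal proteins or copies of them. Rps20 was at 1308 and 1403 CPM on chips 21 and 22 against 196 to 654 CPM (median 550), a log2 fold change of 1.40 (SE 0.282, adjusted p = 0.0111). Rpl29 was at 761 and 448 CPM against 51.9 to 326 CPM (median 183), a log2 fold change of 1.78 (SE 0.357, adjusted p = 0.0111). Both H2B-GFP chips stood above all CreERT chips for each. The same held for Rpl23 (log2 fold change 1.32), Rpsa (1.27), Rpl8 (1.24), Rps24 (1.24), the stalk protein gene Rplp2 (1.16), Rpl39 (1.15) and the pseudogene Rps15a-ps4 (1.19). Genes of this family have many near-identical copies among which reads can be split, so these values are uncertain as values of single genes.

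Outside the ribosomal proteins and their copies 6 genes were higher. Snord49b, a small nucleolar RNA that lies within another transcript, was at 257 and 179 CPM against 14.6 to 86.1 CPM (log2 fold change 2.24, SE 0.523, adjusted p = 0.0340). Tmem14c was at 300.1 and 134 CPM against 0 to 94.7 CPM (2.35, SE 0.579, adjusted p = 0.0447), and Pisd-ps3 at 879 and 1015 CPM against 94.7 to 478 CPM (1.58, SE 0.318, adjusted p = 0.0111). All 3 separated the lines completely. Plod1, a lysyl hydroxylase of collagens, was at 332 and 284 CPM against 38.6 to 169 CPM (log2 fold change 1.69), and Vamp7, a SNARE protein of vesicle fusion, at 247 and 299 CPM against 65.8 to 118 CPM (1.53). The glycolytic enzyme gene Gapdh was at 665 and 463 CPM against 64.5 to 474 CPM (1.45); here alone among the 18 the chips overlapped, through CreERT chip 15.

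The 3 lower genes were Esr1, given above, Ubl3 and Pxdc1. Ubl3, a membrane-anchored ubiquitin-like protein, was at 32.2 and 105 CPM against 188 to 328 CPM (median 253), a log2 fold change of -2.01 (SE 0.463, adjusted p = 0.0340 by edgeR). Pxdc1, a gene named for its PX domain, was at 42.9 and 44.8 CPM against 103 to 309 CPM (median 208), a log2 fold change of -2.20 (SE 0.540, adjusted p = 0.0447 by edgeR). All CreERT chips lay above both H2B-GFP chips for each. Over all cells the chips overlapped for Pxdc1 (101 and 149 against 115 to 244 CPM) but not for Ubl3 (157 and 149 against 182 to 317 CPM). The chips of the lines did not overlap for 280 of the 3771 genes (7.43%), 167 higher and 113 lower, and 17 of the 18 called genes were among them. Without chip 21 edgeR called 0 genes (419 with an unadjusted p under 0.05), without chip 22 only Rpl29 (adjusted p = 0.0481), and without chip 5, 18, 19 or 20 the count was 29, 9, 6 and 8. Gapdh, Pxdc1 and Tmem14c lay close to the threshold and lost their call without most single chips, with adjusted p by edgeR of up to 0.536, 0.445 and 0.633, each without chip 21. Ubl3 had a log2 fold change of -1.33 without chip 21 and -2.96 without chip 22, with edgeR adjusted p of 0.536 and 0.0949, and lost its call in 9 of 22 alternatives. Rps24, Rpl29 and Tmem14c also hung on single H2B-GFP chips, at 0.72, 1.30 and 1.62 without chip 21 and 1.59, 2.10 and 2.80 without chip 22. Each of the 18 lost its call in at least 2 alternatives, Rpl29 and Rps20 in the fewest. DESeq2 called 24, of which 15 were among the 18.

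**Figure D4:**
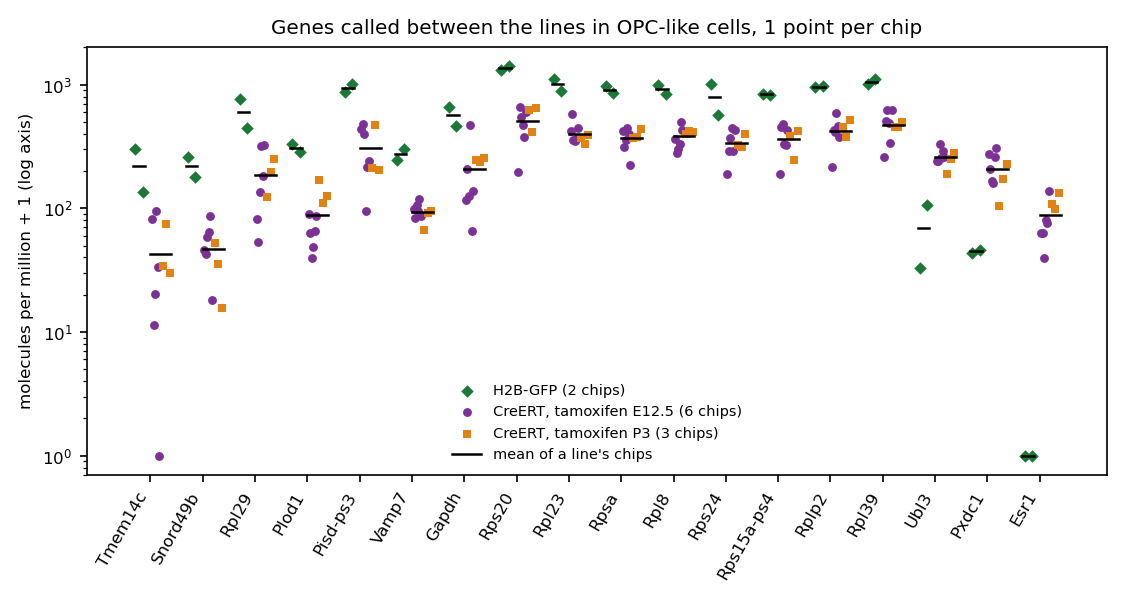
Level in OPC-like cells of the 18 genes called between the lines, as CPM plus 1 on a log axis with 1 point per chip and black bars for the mean of a line's chips. The H2B-GFP chips lie above the CreERT chips for 14 genes and below them for Ubl3, Pxdc1 and Esr1, and overlap them for Gapdh.

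The same genes could be looked up where the reporter did not differ. The 6 E13.5 brain chips were all of the H2B-GFP line and came from 1 experiment with the older column names (chips 24 and 25) and 1 with the newer (chips 1, 2, 3 and 6), and no chip is shared with the P7 comparison. Between them 187 of 4265 genes (4.38%) passed edgeR's test, 108 higher and 79 lower in the older one, and the chips did not overlap for 1383 (32.4%). Without chip 1, 2 or 3 the count was 91, 116 and 93. The 187 include genes that mark cell types and sex: the older experiment was higher in Col3a1 (mean 3325 against 1115 CPM, edgeR adjusted p = 0.0123), Pdgfra (514 against 99.2 CPM, edgeR adjusted p = 0.00301), Cldn11 (550 against 77.3 CPM, edgeR adjusted p = 0.000567) and Xist (4589 against 1624 CPM, edgeR adjusted p = 0.0111), and also in Pdgfrb, Igf2 and Lum. The experiments thus differ in more than the style of their column names, and the part of cell types or sex in the 187 was not tested. Of the 18 genes called in P7 OPC-like cells 15 were tested there, and 10 passed in the same direction and 0 in the opposite one; these 10 make up 55.6% of the 18 and 5.35% of the 187. They were Snord49b, Tmem14c, Gapdh, Rpl29, Rplp2, Rps15a-ps4, Rps20, Rps24, Rpsa and Ubl3. Tmem14c averaged 235 CPM in the older and 50.4 CPM in the newer E13.5 experiment (log2 fold change 2.15, edgeR adjusted p = 0.0159), and Snord49b 300.1 and 45.8 CPM (2.83, edgeR adjusted p = 0.000948). Ubl3 averaged 12.4 and 103 CPM (-3.09, edgeR adjusted p = 0.0417). For all 10 the older and newer E13.5 chips did not overlap, the older chips being lower for Ubl3 and higher for the other 9. The same lack of overlap held for 182 of the 187 genes called there, so it adds little to the calls.

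The other 5 genes tested did not pass at E13.5. Rpl8, Rpl23 and Rpl39 lay on the same side as at P7, with log2 fold changes of 1.07, 0.94 and 0.76 (edgeR adjusted p = 0.0671, 0.0874 and 0.191), and their older chips were above all the newer ones. Pisd-ps3 was at 792 CPM in the older and 1561 CPM in the newer (log2 fold change -0.97, edgeR adjusted p = 0.220), the opposite sign. Vamp7 was at 71.6 and 78.1 CPM (0.04, edgeR adjusted p = 0.979). Esr1, Pxdc1 and Plod1 were not tested at E13.5, Esr1 being at 0 on all 6 chips. In P7 spinal cord, also of the H2B-GFP line, there was 1 older chip (chip 23, 14 cells) and 4 newer ones. Pisd-ps3 was at 213 CPM on the older chip and 514 to 2428 CPM on the newer, Rpsa at 976 CPM and 808 to 1164 CPM, and Rpl23 at 1401 CPM and 753 to 1141 CPM. For these 3 genes the newer spinal cord chips, which share the newer column names, lay above every CreERT brain chip over all cells, and Esr1 was at 0 on all 5. For the other 14 of the 18 genes they did not separate from the CreERT chips in the P7 direction, in a comparison that also differs in region and was not tested. Within spinal cord, chip 23 lay outside the newer range on the P7 side for Rps20 (1561 against 409 to 895 CPM) and Rps24 (1100 against 470 to 671 CPM). The same held for Rpl23, Rpl39, Snord49b, Tmem14c, Plod1, Ubl3 and Pxdc1. Chip 23 lay inside that range for Rpsa, Rpl8, Rpl29, Rplp2, Rps15a-ps4 and Gapdh, and on the other side for Pisd-ps3. These values rest on 1 older chip and were not tested.

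**Figure D5:**
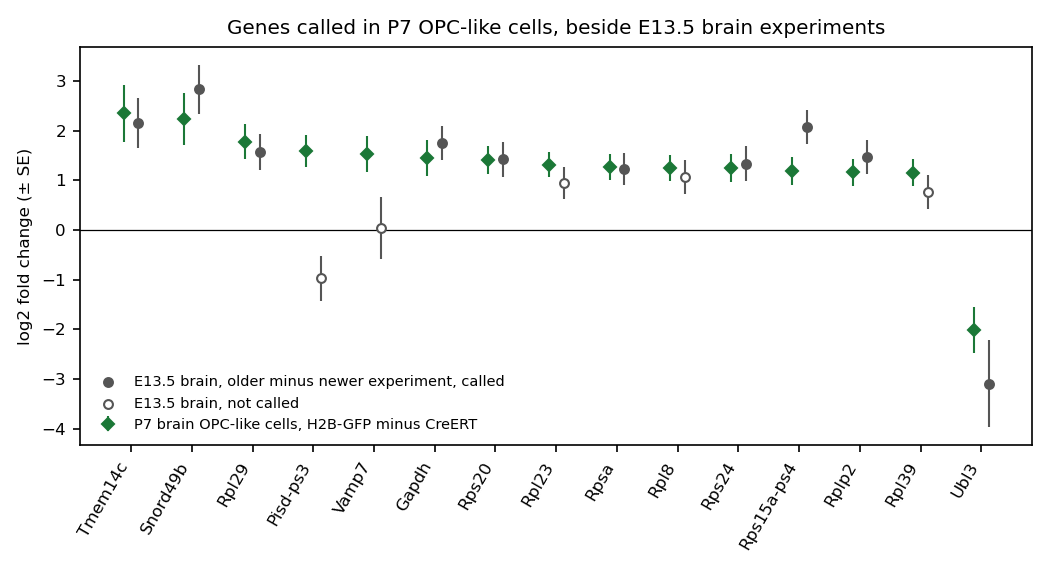
Log2 fold changes with their SE for the 15 genes called in P7 OPC-like cells that were also tested at E13.5, as H2B-GFP minus CreERT (2 against 9 chips) and, with no difference in line, as older minus newer experiment in E13.5 brain (2 against 4 chips, filled where called). Of these 10 were called on the same side at E13.5, Pisd-ps3 lies on the other side and Vamp7 near 0.

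Read by list, the OPC markers did not separate the lines. All 13 were tested over all cells and 0 of them were called (edgeR; 0 with an unadjusted p under 0.05, 0 by DESeq2), with a median log2 fold change of 0.00 against -0.04 over all genes tested. The chips of the lines overlapped for all 13. In OPC-like cells again 0 of 13 were called and 0 had an unadjusted p under 0.05. There Ptprz1, a receptor phosphatase of the OPC surface, had 2594 and 3434 CPM against 1831 to 2693 CPM (log2 fold change 0.42, SE 0.221, edgeR adjusted p = 0.578). Cspg4 had 750 and 866 CPM against 458 to 1477 CPM, Bcan 1511 and 1389 against 823 to 1979, Olig2 622 and 508 against 284 to 1141, and Neu4, a sialidase of OPCs and COPs, 118 and 134 against 89.2 to 420 CPM. The others tested, C1ql1, Cacng4, Lhfpl3, Matn4, Olig1, Sox6 and Tmem100, had edgeR adjusted p of 0.713 to 0.973. Summed over the list, OPC-like cells held 11982 and 13214 CPM on the H2B-GFP chips and 9410 to 14848 on the CreERT chips.

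Markers of later stages leaned toward the H2B-GFP line over all cells, with no call by edgeR. Of 10 COP markers (Bmp4, Gpr17, Neu4, Fyn, Vcan, Sirt2, Enpp6, Tcf7l2, Itpr2 and Sox10) 9 had a log2 fold change above 0, and of 8 NFOL markers tested 7, with medians of 0.23 and 0.32. By edgeR 0 of the 18 were called, 1 had an unadjusted p under 0.05 and DESeq2 called 0. In a wider list of myelin proteins 12 of 16 tested were above 0 (median 0.31). There edgeR called 0 and DESeq2 called 1, beside 36 of the 1060 genes it adjusted. In OPC-like cells 5 of 12 myelin protein genes were above 0 (median -0.12), with 0 called by either tool. Gpr17 was at 3858 and 2357 CPM against 1377 to 2949 CPM (log2 fold change 0.54, edgeR adjusted p = 0.583, but 0.12 without chip 21 and 0.87 without chip 22). Ugt8a, which makes the galactolipids of myelin, was at 490 and 666 CPM against 189 to 487 CPM (0.80, edgeR adjusted p = 0.501). It was the 1 gene of the 18 whose chips did not overlap, beside 536 of 6579 (8.15%) over all genes. Ugt8a in OPC-like cells was at 418 and 523 against 83.0 to 426 CPM (1.03, edgeR adjusted p = 0.234). In OPC-like cells 1 of 8 COP markers tested was above 0, the median being -0.19, and 3 of 5 NFOL markers, the median being 0.35. Bmp4 had no molecule in 70 OPC-like cells of the H2B-GFP line and 50 molecules on the CreERT chips, at 7.28 to 85.6 CPM, too few to be tested. Of the late myelin genes Mog, Mobp, Mal, Opalin and Ermn no molecule was found on chips 21 and 22, while the CreERT chips held all but Opalin. These NFOL markers were not among the 8 tested, so the count above leaves them out. The share of COP-like and NFOL-like cells given above moved the same way as most of the tested markers over all cells. Its part in their levels was not tested.

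VLMC genes were lower over all cells in the H2B-GFP line than over the 9 CreERT chips together, with no call by edgeR. All 13 members tested had a log2 fold change under 0 (median -1.30), 0 were called by edgeR, 7 had an unadjusted p under 0.05, and DESeq2 called 1. That was Ptgds, which makes prostaglandin D2: 31.4 and 8.76 CPM on chips 21 and 22, 6 molecules in all, against 9.32 to 8864 CPM (median 2191) on the CreERT chips (log2 fold change -7.30, SE 1.89, edgeR adjusted p = 0.155, DESeq2 adjusted p = 0.00135). The CreERT chips span almost the whole range and 2 of them, chips 5 and 19, lay between the H2B-GFP chips. Lum, the proteoglycan lumican, was at 12.6 and 35.0 CPM against 55.9 to 562 CPM (median 209), with a log2 fold change of -3.24 (SE 0.822, edgeR adjusted p = 0.142). It was the 1 of 13 members without overlap, beside 536 of 6579 (8.15%) over all genes. Igfbp2, which binds insulin-like growth factors, was at 188 and 342 CPM against 210 to 1650 CPM (-1.69, edgeR adjusted p = 0.413), and in OPC-like cells at 53.6 and 14.9 against 63.2 to 161 CPM (-1.70, edgeR adjusted p = 0.275). The value of Igfbp2 in OPC-like cells was -2.96 without chip 21 and -1.16 without chip 22. The edgeR calls depended on the setting: Ptgds passed with no filter on low counts, against either tamoxifen time alone and without chip 5 or 19, Lum with no filter, against either time alone and without chip 19, and Igfbp2 against tamoxifen at E12.5 alone. The others tested were Apod, Col1a1, Col1a2, Col3a1, Col4a1, Dcn, Igf2, Lama1, Nid1 and Slc6a13. Against the chips of tamoxifen at P3 alone the order was mixed: 6 of the 13 had the higher mean in the H2B-GFP line, Igf2 (988 against 639 CPM), Dcn (406 against 357), Apod (393 against 307), Col4a1 (253 against 207), Nid1 (78.9 against 57.1) and Lama1 (35.7 against 23.9 CPM). Against those of tamoxifen at E12.5 all 13 were lower by mean. The 14 genes together made 2570 and 4118 CPM against 1034 to 23186 CPM (median 10596). The lower share of wells with OPC and VLMC genes on chips 21 and 22 moved with these levels. With the wells of 2 classes left out edgeR called 10 genes over all cells. Over 21 alternatives, that setting included, the log2 fold change ran from -8.56 to -6.74 for Ptgds and from -4.01 to -2.26 for Lum. For Igfbp2 it ran from -2.13 to -0.34. How large a part these wells have in the levels was not tested.

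Among the genes of the pathway itself, Pdgfa, Pdgfra and Pdgfrb were tested over all cells and none was called (edgeR; 0 with an unadjusted p under 0.05, 0 by DESeq2). Pdgfa, the ligand of the receptor in brain, was at 25.1 and 52.6 CPM against 19.8 to 117 CPM, and Pdgfrb, the receptor of pericytes, at 12.6 and 43.8 CPM against 0 to 67.2 CPM. Both overlapped. Of 23 genes of signalling below the receptor 0 were called, 3 had an unadjusted p under 0.05, and 7 were above 0 (median -0.28). Of 9 ERK feedback and target genes 0 were called, 2 had an unadjusted p under 0.05, and 1 was above 0 (median -0.38). DESeq2 called 0 of either list. In OPC-like cells the medians were -0.28 over 17 genes and -0.08 over 9, again with 0 called by either tool and 3 and 0 with an unadjusted p under 0.05.

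The ribosomal proteins were the one list with calls by edgeR. Over all cells 1 of 75 passed (Rpl8), 46 were above 0 (median 0.13) and 18 separated the lines, all higher in the H2B-GFP line, beside 4 called and 536 separated among all 6579 genes (0.0608% and 8.15%). In OPC-like cells 6 of 71 passed (Rpl23, Rps24, Rpl8, Rps20, Rpl29 and Rpl39), 46 were above 0 (median 0.21), and 20 separated the lines upward and 2 downward, beside 18 called and 280 separated among all 3771 genes (0.477% and 7.43%). The list was drawn by a pattern of gene names and leaves out Rpsa, called in both comparisons, and Rplp2, called in OPC-like cells, so the counts of 1 and 6 do not hold every ribosomal protein called. DESeq2 called 10 in each comparison. The summed level in OPC-like cells was 40781 and 39193 CPM on chips 21 and 22 against 19395 to 34542 CPM (median 31959), with no overlap. The nuclear-encoded respiratory chain had 0 of 74 called there (14 with an unadjusted p under 0.05, 0 by DESeq2) and summed levels of 30792 and 25009 CPM within the CreERT range of 14081 to 33391 CPM.

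Stress genes leaned opposite ways by value. All 15 heat shock and chaperone genes tested over all cells were above 0 (median 0.48), 0 were called by edgeR, 4 had an unadjusted p under 0.05, DESeq2 called 3 and 5 separated the lines (36 of the 1060 genes adjusted by DESeq2 and 536 of 6579, 8.15%, over all genes), and the summed levels were 11743 and 10110 CPM against 6441 to 10644 CPM (median 7935). Of 21 immediate early genes, transcription factors and regulators that are switched on within minutes of a stimulus such as dissociation, 1 was above 0 (median -1.36), 0 were called by edgeR or DESeq2 and 7 had an unadjusted p under 0.05. Their summed level was 1552 and 1270 CPM against 1375 to 4412 CPM (median 2032). The sums overlapped for both lists over all cells; in OPC-like cells that of the immediate early genes did not, at 922 and 956 against 1011 to 2059 CPM.

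Some lists had sums that separated the lines in OPC-like cells although no member was called by edgeR or DESeq2. Cholesterol synthesis genes summed to 4234 and 4300 CPM against 3019 to 4086 CPM (2 of 16 tested with an unadjusted p under 0.05), and 12 of the 16 were above 0 (median 0.14). Perineuronal matrix and proteoglycan genes summed to 12047 and 12064 CPM against 8543 to 11362 CPM (1 of 12), led by Ptprz1 in both lines. Of these 12 genes 6 were above 0 (median 0.02). Glutamate and GABA receptor genes summed to 4276 and 4479 CPM against 2865 to 4226 CPM (2 of 13), of which Gria2, a subunit of AMPA receptors, was the most abundant. Gria2 averaged 2166 against 1246 CPM, a wider gap than that between the mean sums of 4378 and 3535 CPM, and 6 of the 13 genes tested were above 0 (median -0.07). Sodium, potassium and calcium channel genes summed to 2669 and 2807 CPM within 2316 to 3398 CPM (1 of 17), and lineage transcription factors to 7492 and 8078 CPM within 5478 to 12003 CPM (0 of 23). In OPC-like cells the sums of ribosomal proteins and immediate early genes also separated, as given above, and those of every other list overlapped. Among single genes 280 of 3771 (7.43%) separated there. The sums were not tested.

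Microglial, ependymal and erythroid markers had no molecule on chips 21 and 22, while on the CreERT chips they reached 219, 287 and 4990 CPM summed on single chips and had a median of 0, 3.96 and 0. Of 8 endothelial genes 2 were found (Itm2a and Cdh5), with Cldn5, Flt1 and Pecam1 at 0, at 276 and 359 CPM summed against 60.6 to 981 CPM, and of 8 pericyte genes 4, with Rgs5 and Kcnj8 at 0. The pericyte genes summed to 565 and 990 CPM against 200.3 to 3144 CPM (median 1306), led by Vtn in both lines. Astrocyte markers summed to 358 and 447 CPM against 400.3 to 913 CPM with Aqp4, Gfap and Aldh1l1 at 0, and neuronal markers to 509 and 578 CPM within 310 to 720 CPM, led by Dcx. None of the genes tested from these lists was called in either comparison by edgeR or DESeq2, 1 endothelial and 2 astrocyte genes having an unadjusted p under 0.05 over all cells.

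Genes of division and of the extracellular matrix were mostly lower by value over all cells, with 0 called by edgeR or DESeq2 in any of these lists. Of 11 cycling markers tested 2 were above 0 (median -0.82, 1 with an unadjusted p under 0.05), and of 27 cell cycle genes 9 (median -0.57, 3). Of 24 genes of fibrillar and basement membrane matrix 1 was above 0 (median -0.89, 6), summed to 2476 and 3706 CPM within 1155 to 10508 CPM. Of 5 interferon and antigen presentation genes 2 were above 0 (median -0.43, 1). The sex-linked list had 2 of 5 above 0 (median -0.01, 0 with an unadjusted p under 0.05).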

How the data were processed

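Molecules (unique molecular identifiers) were counted per gene and well by the authors with STRT-seq on Fluidigm C1 chips; the deposited values are whole-number counts. The labels name mm10; an aligner is described for the bulk samples but was not found for the single cells. Positions are from GENCODE M21. Wells with at least 1000 molecules were kept; 9 lay within 10% above this and 14 within 10% under it.

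Wells with 3 or more molecules from 2 or more genes of each of a pair of classes were set aside before clustering (scanpy 1.11.5; 2000 variable genes, 30 principal components, 15 neighbours, Leiden resolution 1.0). Clusters were named from marker lists by a rule settled after they were seen. Molecules were summed per chip (at least 5 OPC-like cells) and tested with edgeR 4.0.16 (TMM, filterByExpr, quasi-likelihood F-test, Benjamini-Hochberg) or, as an alternative, DESeq2 1.42.0; the steps were tested on simulated data. Shares and medians were compared by two-sided exact permutation of the absolute difference, whose smallest p with 2 and 9 chips is 1 in 55; the plan had stated 2 in 55 by mistake. Other scaling, filters, depths, clusterings and subsets of chips were tried. Limits for a count of 0 take 3 molecules or cells and cover counting error only.

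Genes named were the called genes with the largest change (up to 10 per direction, no overlap between chips, at least 30 molecules), tested members of the OPC, COP, NFOL, VLMC, PDGF and sex-linked lists, and up to 4 called members of other lists. Gapdh, the genes followed by class, Esr1, Ubl3 and Pxdc1 over all cells and untested genes were named after their values were seen. Members and lists were chosen with earlier results of these data known.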

Additional observations from a re-analysis of the deposited data

Results flagged for a closer look

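Among 48 values compared over the 9 CreERT chips, 5 had a chip whose gap to its nearest neighbour, divided by the range of all chips, passed Dixon's critical value of 0.493; chance gives about 1 in 20. The share of cycling cells was 24.2% on chip 18. The share of Mog-positive cells at 1000 molecules was 4.00% on chip 17, where Lum over all cells was 562 CPM. In OPC-like cells Gapdh was at 474 CPM on chip 15 and Rpl23 at 581 CPM on chip 13. Their causes were not tested. The Cre entry, which no test across genes used, held 37 molecules on the CreERT chips and none on the H2B-GFP chips.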

How the results depend on the processing

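No paired analysis was possible because each chip belongs to 1 line and no experiment holds both. The share of OPC-like cells differed by -0.884 points and by 6.13 with tamoxifen at E12.5 only, 1.42 with wells of 2 classes kept, 2.67 in wells of at least 2000 molecules, and -3.64 to 1.37 leaving out 1 chip. That of VLMC-like cells turned to 4.57 with tamoxifen at P3 only and 2.54 in wells of at least 2000 molecules (-5.24 to 0.00632 leaving out 1 chip). Col1a1-positive cells turned to 0.0611 points with tamoxifen at P3 only, and Top2a-positive cells to -0.148 there, -1.44 without thinning and -3.34 thinned to 2000 molecules (-1.38 to 6.27 leaving out 1 chip). None of these passed, and with tamoxifen at P3 only or 1 H2B-GFP chip left out none could have.

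Over all cells the 4 calls became 36 by DESeq2, 17 with RLE size factors, 12 with no filter, 18 and 57 with tamoxifen at E12.5 or P3 only, 21 with both times weighted equally, 8 in wells of at least 2000 molecules, 10 without wells of 2 classes, and 0 to 22 leaving out 1 chip. In OPC-like cells the 18 became 4 and 11 with tamoxifen at E12.5 or P3 only, 4 when cells were thinned, 9 with wells of 2 classes kept, and 0 to 29 leaving out 1 chip. The 187 at E13.5 ranged from 91 to 263 leaving out 1 chip. With 1 H2B-GFP chip left out, the lone chip is assumed to vary like the others. The cause was not tested. Over 781 alternatives for 38 named genes and shares of positive cells, 598 kept direction and side of the threshold, 157 lost and 21 gained a call, and 5, all in the shares given above, turned. At about 2000 to 4000 molecules per cell, genes with few molecules cannot be compared cell by cell.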

Other observations

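Chip 9, which the labels put in no group, held 78 cells with a median of 9720 molecules, 20 molecules of GFP in 14 cells, and 0 of Cre and Esr1. Within cycling cells Top2a stood between 2242 and 2613 CPM on the 2 H2B-GFP chips, from 8 cells. On the CreERT chips it stood at 461 to 1586 CPM (median 1115), from 60 cells, with no overlap. This was noticed among the values by class and not tested, and the share of all genes without overlap in these cells is not given. Top2a is itself 1 of the 12 cycling markers used to name clusters. Of 10 such markers tested in OPC-like cells, cycling ones included, 1 was above 0 (median -0.79) and 0 were called by edgeR. Bmp4 in NFOL-like cells was between 653 and 1493 CPM on the H2B-GFP chips and between 0 and 1299 CPM (median 512) on the CreERT chips, which overlap.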
